A study of Mus musculus with 28 samples.

Results

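Implants taken 21 days after tumor inoculation were compared between tumor-bearing and healthy mice. These are 6 of the 28 samples of the series, 3 on each side, chosen by the day and the condition in the labels, and all 648 assays of a quantitative PCR panel of inflammation genes were considered. The implant is a microporous scaffold of polycaprolactone (PCL, a slowly degrading polyester) placed under the skin. It fills with host tissue and white blood cells and is called a synthetic niche. All mice were female BALB/c, and the series also holds implants from day 7 (3 and 3) and day 14 (8 and 8).

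The tumor-bearing group had received 4T1-luc2-tdTomato cells, a BALB/c mammary carcinoma line that carries luciferase and a red fluorescent protein. The healthy group was taken on the same day, carried the same implant and was free of tumor at analysis. The labels also list the tumor line for these healthy mice, and the condition at analysis was used to form the groups. Reporter transcripts were not analysed here. The sources used here do not give the age of the mice or the time between implantation and inoculation. Each of 3 physical panels, called A, B and C, held 1 healthy and 1 tumor-bearing sample of this day. Healthy replicate 23 and tumor-bearing replicate 26 were on panel A, replicates 24 and 27 on B, and replicates 25 and 28 on C.

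Neutrophils are made in the bone marrow, where maturing cells fill their granules with antimicrobial proteins in a fixed order. Proteases of the primary granules are transcribed first, proteins of the secondary and tertiary granules later, and the circulating neutrophil has largely shut these genes off while it keeps the calcium-binding proteins S100A8 and S100A9. The 4T1 tumor is known for driving granulocyte production and for raising immature myeloid cells in blood and tissues.

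A reaction is read as its quantification cycle (Cq), the PCR cycle at which it crosses the detection threshold, so that 1 cycle less means about a doubling of template. Values below are log2 relative quantities, which equal a per-sample constant minus the Cq. In all 28 samples that constant was the mean Cq of the same 5 of the 16 assays marked as reference, within a tolerance of 0.001 cycles. These 5 differed between the groups by -0.13 to 0.16 at day 21, and the 11 other assays marked as reference by -0.29 to 0.37.

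The day 21 samples had a Cq for 566 to 584 assays, and 420 of their 3888 reactions (10.8%) had none. Spearman correlations between the 6 samples over assays were 0.933 to 0.993. The spread between mice depended on how late a reaction was. The median SD of 3 mice was 0.185 where the group's median Cq was under 20 and 0.24 from 20 to 24. It was 0.462 from Cq 24 to 28 and 0.937 at Cq 28 or later. Only groups with all 3 values entered these SDs, and assays with a reaction more than 4 cycles from its group median were left out.

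In the limma model 573 assays could be tested and 7 of them, 1.22%, passed an adjusted p of 0.05. Of the 573, 6 (1.05%) were higher and 1 (0.175%) was lower in tumor-bearing mice. The 6 that rose were Prtn3, Ela2, Camp, Ltf, Itgb2l and Chi3l3, and the 1 that fell was Ccr7. An unadjusted p under 0.05 was seen for 52 assays (9.08%). The median difference over all 573 was -0.00, with 286 above and 287 below 0, and the median standard error was 0.36. Of the 498 assays measured in all 6 samples, 46 (9.24%) had every tumor-bearing sample above every healthy one and 35 (7.03%) had the reverse. Higher on all 3 panels were 89 (17.9%), and lower on all 3 were 67 (13.5%). An exact permutation test of 3 against 3 mice cannot go below p = 0.1, so every adjusted p here rests on the spread that the model shares across assays and days.

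The count of 7 depended on single samples. Without healthy replicate 23 only Camp passed (1 assay). Without healthy replicate 24 Camp, Chi3l3 and Ela2 passed (3 assays), and without healthy replicate 25 Camp, Ela2 and Prtn3 (3 assays). Prtn3 could not be tested without healthy replicate 23 or 24, nor Itgb2l without 23 or 25, since fewer than 2 healthy values were left. Prtn3 passed in 4 of the 4 leave-one-out fits that could test it. Leaving out tumor-bearing replicate 26 or 27 gave 7 and 6 assays, in both cases with Camp, Ela2, Prtn3, Ltf and Chi3l3 and without Itgb2l and Ccr7. Without tumor-bearing replicate 28 there were 5, with Camp, Ela2, Prtn3 and Itgb2l among them. With both samples of panel A removed, an alternative chosen after seeing the data, 1 assay passed, Tnfrsf18, and Camp differed by 6.63 with an adjusted p of 0.0732 in limma. Prtn3 and Itgb2l could not be tested in that fit.

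Both primary granule proteases measured rose. Prtn3 encodes proteinase 3, a serine protease of primary granules. Its log2 relative quantity was -10.86 and -9.04 in healthy mice on panels A and B, with no Cq on panel C, and -4.64, -4.07 and -3.92 in tumor-bearing mice on A, B and C. All 3 tumor-bearing samples lay far above both measured healthy samples. The model difference was 5.76 ± 1.05 (SE; adjusted p = 0.0098, limma), a 54-fold rise with a 95% interval of 11.5 to 253. In raw terms the reactions crossed threshold at 29 and 27.3 cycles in healthy and at 22.5 to 23.1 cycles in tumor-bearing mice.

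Ela2, now named Elane, encodes neutrophil elastase and lies beside Prtn3 on chromosome 10. It read -11.19, -11.17 and -10.93 in healthy and -6.31, -5.32 and -5.33 in tumor-bearing mice. The groups did not overlap, and the healthy mice were nearly identical (SD 0.145, n = 3) although their reactions came late, at 29.3 to 29.4 cycles. The difference was 5.44 ± 1.01 (adjusted p = 0.0098), 43.4-fold (95% interval 10 to 189). On the separate panels it was 4.88, 5.84 and 5.60.

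Of the 5 genes tested in the list of secondary and tertiary granule genes, 4 rose and 0 fell, with a median difference of 3.24 against -0.00 over all assays. The list was chosen with earlier results of these data known. It includes Itgb2l, an integrin subunit gene, and Chi3l3, which is also in the alternative macrophage activation list. In all 5 every measured tumor-bearing sample lay above every healthy one, a pattern found in 59 of the 573 assays (10.3%). Camp encodes the precursor of the antimicrobial peptide CRAMP, the mouse cathelicidin. It read -9.19, -9.63 and -8.43 in healthy and -2.68, -2.39 and -2.41 in tumor-bearing mice. The tumor-bearing values sat within a narrow range (SD 0.164) and the healthy ones were more spread (SD 0.605). Camp had the largest difference of the tested assays, 6.59 ± 1.11 (adjusted p = 0.00338), 96.2-fold with a 95% interval of 19.4 to 476.

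Ltf encodes lactoferrin, the iron-binding protein of secondary granules. Healthy mice read -5.58, -5.97 and -6.42 and tumor-bearing mice -2.10, -1.98 and -1.57. The groups were separate on every panel, by 3.48, 3.98 and 4.84. The rise was 4.10 ± 0.88 (adjusted p = 0.0137), 17.2-fold (95% interval 4.86 to 60.8). Ltf passed in only 2 of the 6 fits that left out 1 day 21 sample, with adjusted p values from 0.031 to 0.0771.

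Chi3l3, now Chil3, encodes the chitinase-like protein Ym1, which is made both by neutrophil precursors and by alternatively activated macrophages. It read -8.71, -7.62 and -7.91 in healthy and -5.09, -5.27 and -4.38 in tumor-bearing mice. Every tumor-bearing sample was higher than every healthy one. The rise of 3.17 ± 0.69 (adjusted p = 0.0137) equals 8.99-fold (95% interval 3.34 to 24.2). Of the 13 assays of the alternative macrophage activation list it was the only one to rise, 0 fell, and the list's median was -0.06. The macrophage mannose receptor Mrc1, in that list, differed by 0.47 ± 0.39 (adjusted p = 0.88).

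Itgb2l encodes a beta integrin subunit related to that of the leukocyte integrins, found in maturing neutrophils. It read -12.42 on panel A and -11.63 on panel C in healthy mice, with no Cq on B, and -7.94, -8.51 and -9.90 in tumor-bearing mice. The groups did not overlap, but the step on panel A, 4.47, was larger than on panel C, 1.73. The difference was 3.24 ± 0.70 (adjusted p = 0.0437), 9.42-fold (95% interval 3.29 to 26.9), and it passed in 1 of the 4 leave-one-out fits that could test it (adjusted p 0.0272 to 0.136). The call was lost with the panel as a fixed block (adjusted p = 0.161), without a block (0.0528) and with the day 21 samples alone (0.175). Pglyrp1, a peptidoglycan recognition protein of tertiary granules, read -5.20, -5.57 and -5.17 in healthy and -3.93, -4.20 and -3.92 in tumor-bearing mice. It was higher on 3 of 3 panels without overlap, by 1.29 ± 0.37 (adjusted p = 0.105), and did not pass. In 3 alternatives it did: with the panel as a fixed block (adjusted p = 0.0441), with the day 21 samples alone (0.0382) and with the raw Cq scaled by the sample median in place of the reference assays (0.0495).

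**Figure D1:**
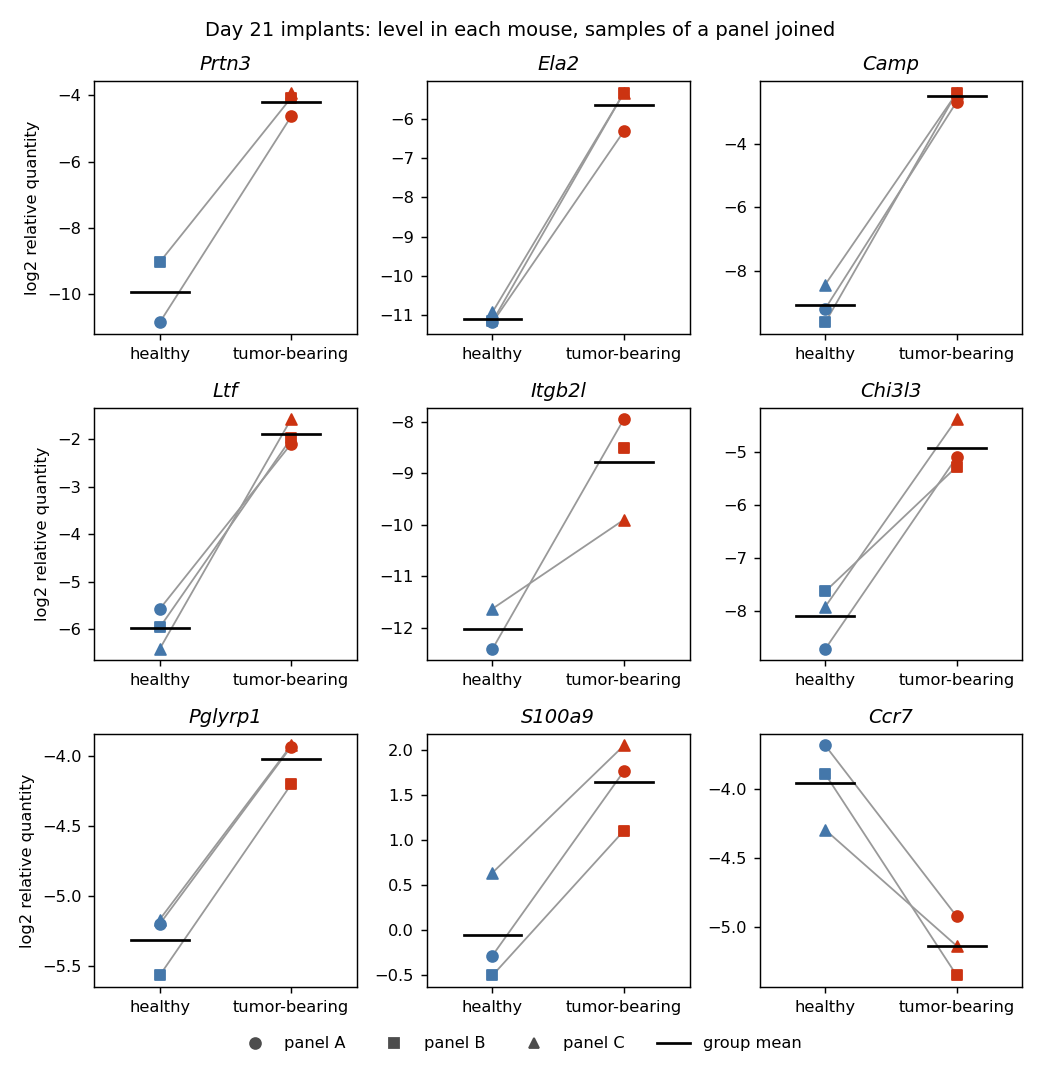
Log2 relative quantity (y axis, a separate range for each gene) of 9 genes in the 3 healthy and 3 tumor-bearing day 21 implants. Symbols mark the panel, grey lines join the 2 samples of a panel, and black bars are group means. Camp runs from between -9.63 and -8.43 to between -2.68 and -2.39, and Ccr7 runs the other way.

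The promoters of 6 of the 7 called genes were in the RefSeq promoter table for GRCm38.p6 (Ccr7 had no entry). The 250 bases before each start were searched on both strands for letters bound by factors of myeloid cells: GAGGAAGT (PU.1), TTNNGNAA and TGNNGNAA (C/EBP, which can overlap each other), TGTGGT (RUNX) and a palindromic NF-kappaB motif. GAGGAAGT occurred in 3 of the 6, Prtn3, Elane and Itgb2l, and in 2.44% of 32851 promoters of the same length. It began 95 bases before the start of Prtn3 and 85 before that of Elane on the gene's strand, and on the opposite strand of Itgb2l it lay 57 bases before the start in that table. The Itgb2l gene record begins 50 bases upstream of that start, so the last 50 printed bases of Itgb2l lie within the gene's span and the match lies at its edge. The C/EBP letters are loose: TTNNGNAA was in Ltf, Chil3 and Itgb2l and in 36.8% of all promoters, and TGNNGNAA was in Camp, Elane and Itgb2l and in 41%. TGTGGT (14% of all) and the NF-kappaB motif (1.21%) were in 0 of the 6. A match says only that these letters are present. The 3 promoters that hold GAGGAAGT are printed on the strand of the gene, 5′ to 3′, with the match in capitals (in Itgb2l it reads ACTTCCTC). They lie at chr10:79879417-79879666 (+), chr10:79886062-79886311 (+) and chr16:96443615-96443864 (-), which shows how near the 2 protease genes are to each other.
Prtn3: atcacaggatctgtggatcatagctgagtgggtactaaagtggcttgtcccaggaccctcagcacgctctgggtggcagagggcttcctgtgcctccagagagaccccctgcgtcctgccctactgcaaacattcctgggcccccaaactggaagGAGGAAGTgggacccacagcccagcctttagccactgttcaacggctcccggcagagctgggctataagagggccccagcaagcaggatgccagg
Elane: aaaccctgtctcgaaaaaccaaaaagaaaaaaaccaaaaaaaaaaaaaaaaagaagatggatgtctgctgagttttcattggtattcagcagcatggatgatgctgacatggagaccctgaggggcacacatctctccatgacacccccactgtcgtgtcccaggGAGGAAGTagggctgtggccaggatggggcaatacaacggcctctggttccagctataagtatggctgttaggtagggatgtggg
Itgb2l: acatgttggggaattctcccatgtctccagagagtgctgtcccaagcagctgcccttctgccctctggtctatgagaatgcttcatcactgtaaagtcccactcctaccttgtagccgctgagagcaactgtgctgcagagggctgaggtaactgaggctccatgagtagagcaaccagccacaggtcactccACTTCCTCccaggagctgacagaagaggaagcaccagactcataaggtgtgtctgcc

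In GRCm38.p6 the Prtn3 gene spans chr10:79879667-79883174 and Elane chr10:79886312-79888216. Camp (chr9:109847377-109849456) and Ltf (chr9:111019292-111042766) share chromosome 9. Chil3 lies at chr3:106147554-106167564, Itgb2l at chr16:96422288-96443664 and Ccr7 at chr11:99144199-99155077. Each of the 7 called genes was measured by 1 assay, so none of these differences has a second assay beside it.

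The genes that mature neutrophils keep expressing differed less. Of 8 assays for neutrophil cytosolic proteins and receptors, 0 rose and 0 fell, 7 were above 0 and the median was 0.67. Over all 573 assays, 286 were above 0. S100a9 encodes a subunit of calprotectin, the main cytosolic protein of neutrophils. It read -0.29, -0.51 and 0.64 in healthy and 1.77, 1.11 and 2.06 in tumor-bearing mice. The groups did not overlap, and the difference of 1.70 ± 0.59 (adjusted p = 0.268) did not pass. Its partner S100a8 gave 1.76 ± 0.75 (adjusted p = 0.462) and 1.61 ± 0.72 (adjusted p = 0.495) in its 2 assays, each higher on 3 of 3 panels. The formyl peptide receptor gene Fpr1 differed by 0.67 ± 0.47 and Il8rb (now Cxcr2, a chemokine receptor of neutrophils) by 0.60 ± 0.39, and neither passed (adjusted p = 0.76 and 0.73). The related receptor gene Il8ra (now Cxcr1) differed by -0.53 ± 0.35 (adjusted p = 0.73) and Trem1, a receptor that amplifies neutrophil activation, by 0.12 ± 0.62 (adjusted p = 0.99), each lower on 2 of 3 panels. The NADPH oxidase genes Cybb and Ncf1, which make the oxidative burst, differed by 0.35 ± 0.21 and 0.22 ± 0.22 (adjusted p = 0.73 and 0.92). In bulk implants, more cells of a type and more RNA per cell cannot be told apart.

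The signals that draw and sustain neutrophils lay on the other side of 0. Of 13 assays for neutrophil-attracting chemokines and growth factors 12 were below 0, with a median of -0.48, but 0 rose and 0 fell. Over all 573 assays, 287 were below 0. Csf2, Csf3 and Cxcl1 each had 2 of the 13 assays and Il6 had 3. Cxcl2, a ligand of Cxcr2, read -0.77, -1.58 and -0.68 in healthy mice and -3.16 and -2.61 in tumor-bearing mice on panels B and C, with no Cq on A. Both tumor-bearing values were below all 3 healthy ones, and the difference of -1.86 ± 0.68 (adjusted p = 0.301) did not pass. Its relative Cxcl1 differed by -0.70 ± 0.38 and -0.39 ± 0.50 in 2 assays (adjusted p = 0.677 and 0.96). The growth factor of granulocytes, Csf3, gave opposite signs in its 2 assays, -1.79 ± 0.99 and 1.12 ± 0.85 (adjusted p = 0.68 and 0.82). The first of them passed as a fall in the fit of the day 21 samples alone (adjusted p = 0.026).

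Ccr7 was the only assay to fall. It encodes the receptor that guides activated dendritic cells, and T cells, into lymph nodes. It read -3.69, -3.90 and -4.30 in healthy and -4.93, -5.35 and -5.14 in tumor-bearing mice. Every tumor-bearing sample was below every healthy one, as in 46 of the 573 assays (8.03%), and the fall was 1.24, 1.46 and 0.84 on panels A, B and C. The difference was -1.18 ± 0.30 (adjusted p = 0.0437), which is 0.442 of the healthy level (95% interval 0.29 to 0.674). It passed in 0 of the 6 fits that left out a sample (adjusted p 0.0517 to 0.266) and not with the panel as a fixed block (adjusted p = 0.0984).

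Most other genes of the dendritic cell list were on the same side without passing. In the dendritic cell and antigen presentation list of 9 assays, 0 rose, 1 fell (Ccr7) and 8 were below 0, with a median of -0.37. Ccl22, a chemokine of dendritic cells that attracts regulatory and type 2 helper T cells, read -3.25, -3.57 and -3.60 in healthy mice. In tumor-bearing mice it read -4.79 on B and -4.47 on C, with no Cq on A. The 2 measured samples were below all healthy ones, by -1.14 ± 0.30 (adjusted p = 0.0699). Its relative Ccl17 differed by -1.20 ± 0.59 (adjusted p = 0.57) and was lower on 3 of 3 panels. The invariant chain Cd74, which loads class II molecules, differed by -0.07 ± 0.40 (adjusted p = 0.99).

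The chemokines that attract lymphocytes had the lowest median of the lists with at least 5 assays, -0.90 over 14 assays. Of these 13 were below 0 and in 8 every tumor-bearing sample was below every healthy one, but 0 rose and 0 fell. Over all 573 assays, 287 were below 0 and 46 (8.03%) were separate in that direction. Ccl5, made by T cells and macrophages, read -2.03, -2.24 and -2.41 in healthy and -2.69, -3.87 and -3.39 in tumor-bearing mice. The groups did not overlap, and the difference was -1.09 ± 0.32 (adjusted p = 0.109). Its second assay gave -0.95 ± 0.35 (adjusted p = 0.301). Ccl19, a ligand of Ccr7, differed by -1.60 ± 0.90 and the interferon-induced chemokine Cxcl9 by -1.24 ± 0.88 (adjusted p = 0.68 and 0.78).

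Classical inflammatory activation, the program of macrophages and dendritic cells exposed to interferon and microbial products, was also below 0 in most assays. Of 25 assays, which cover 17 genes, 23 were below 0, with a median of -0.69, and 0 rose and 0 fell. In 8 assays every tumor-bearing sample was below every healthy one, beside 46 of 573 (8.03%) over all assays. The assays of Ccl5, Cxcl9, Cxcl10 and Cxcl11 are also in the lymphocyte-attracting list, so the counts of the 2 lists share them. In the same way the 3 Il6 assays are also in the list of neutrophil-attracting chemokines and growth factors. Il12b encodes the subunit shared by interleukin 12 and interleukin 23. In its first assay healthy mice read -5.99, -5.61 and -6.05 and tumor-bearing mice -7.25, -8.26 and -7.79. The groups did not overlap here or in the second assay, and the differences were -1.88 ± 0.64 (adjusted p = 0.259) and -1.28 ± 0.52 (adjusted p = 0.43). Il23a, the other subunit of interleukin 23, differed by -1.69 ± 0.70 and -0.79 ± 0.52 in its 2 assays (adjusted p = 0.43 and 0.73). Stat4, the transcription factor that acts after interleukin 12, read -4.66, -4.41 and -4.49 in healthy and -5.08, -6.28 and -5.54 in tumor-bearing mice, a difference of -1.12 ± 0.34 without overlap (adjusted p = 0.144).

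T cell genes gave no call. Of 9 assays 0 rose and 0 fell, with a median of -0.28, or -0.51 without the Cd40lg assay, which holds a reaction standing apart. Above 0 were 3 and below 0 were 6, beside 286 and 287 over all 573 assays. The 3 were Cd40lg, Il7r (0.32 ± 0.35, adjusted p = 0.92) and 1 of the 2 Il2 assays (0.18 ± 0.56, adjusted p = 0.99). The other Il2 assay gave -1.475 ± 1.13 (adjusted p = 0.86). Tnfrsf18, Fasl and Cr2, given below, are not in this list. Ctla4, an inhibitory receptor of T cells, read -7.38, -7.29 and -7.55 in healthy and -8.31, -9.95 and -8.19 in tumor-bearing mice. It was lower in each tumor-bearing mouse, by -1.41 ± 0.70 (adjusted p = 0.615). Tnfrsf18, the activating receptor GITR of regulatory and activated T cells, read -6.29, -6.06 and -6.45 in healthy mice and -6.26, -8.01 and -8.38 in tumor-bearing mice. The pair on panel A differed by 0.03 and the pairs on B and C by -1.94 and -1.93, and the model difference of -1.28 ± 0.47 had an adjusted p of 0.301. Fasl, the death ligand of cytotoxic cells and the 1 assay of its list, differed by -1.07 ± 0.56 (adjusted p = 0.669), and the B cell gene Cr2 by -0.70 ± 0.83 (adjusted p = 0.92).

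**Figure D2:**
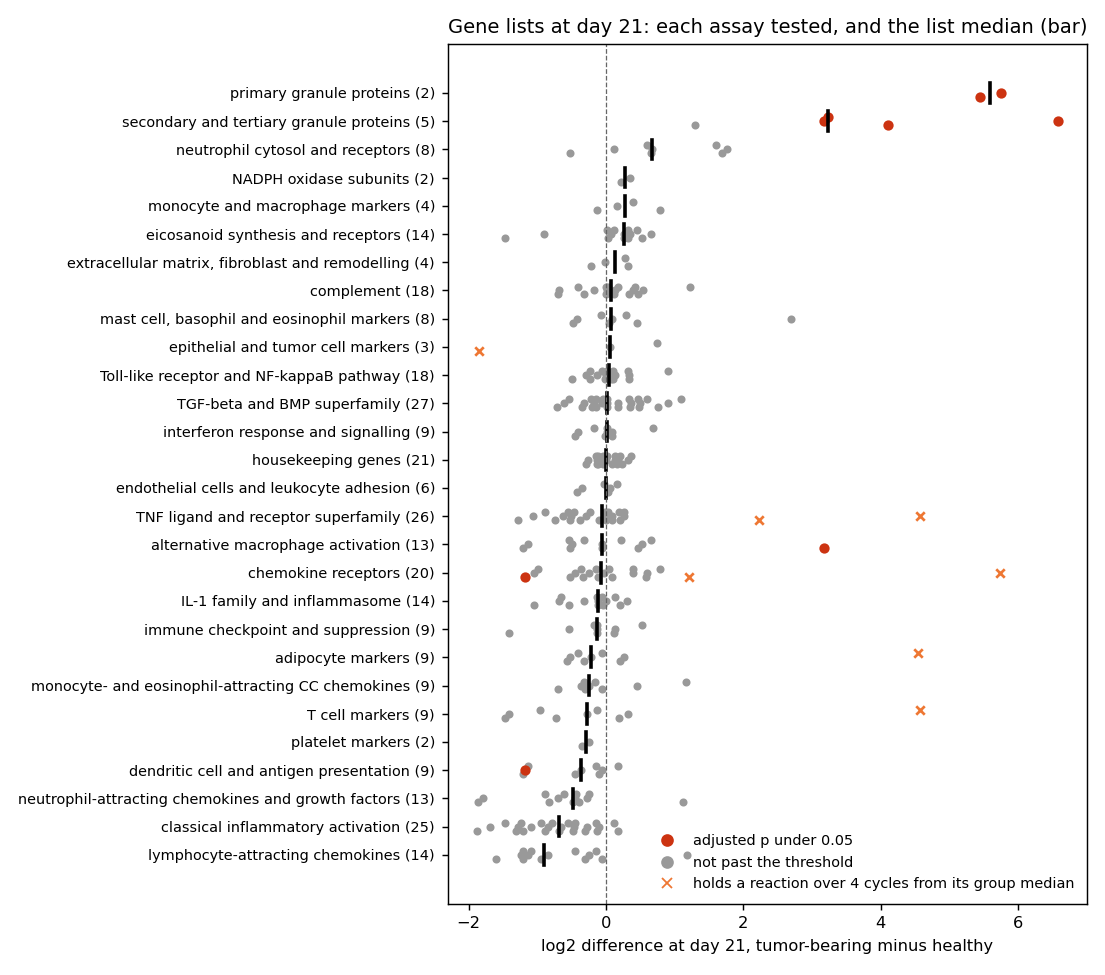
Log2 difference, tumor-bearing minus healthy, at day 21 (x axis) for each tested assay of the gene lists with at least 2 tested assays (number in brackets), sorted by the list median (black bar). Red points passed an adjusted p of 0.05 and crosses hold a reaction more than 4 cycles from its group median. The granule lists have medians of 5.60 and 3.24, and the lists of lymphocyte-attracting chemokines and classical activation have -0.90 and -0.69.

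Monocyte and macrophage markers were near 0 or slightly above it. Of 4 assays 0 rose and 0 fell, with a median of 0.27. Ccr2, the receptor that recruits inflammatory monocytes, read -1.06, -0.29 and -0.87 in healthy and 0.25, 0.04 and -0.17 in tumor-bearing mice. All 3 tumor-bearing samples were higher, by 0.78 ± 0.37 (adjusted p = 0.526). Cx3cr1, the fractalkine receptor of resident monocytes, differed by 0.39 ± 0.20 (adjusted p = 0.669) and Itgam, the CD11b integrin of all myeloid cells, by 0.16 ± 0.23 (adjusted p = 0.99).

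Several pathway lists had medians close to that of all assays. The median was 0.02 for 9 interferon assays, 0.04 for 18 assays of Toll-like receptors and NF-kappaB, 0.07 for 18 complement assays and 0.02 for 27 assays of the TGF-beta and BMP superfamily. The TNF superfamily (26 assays) had -0.06, or -0.17 without its 2 assays that hold a reaction standing apart, the IL-1 family (14) -0.12 and immune checkpoint genes (9) -0.13. None of these lists had a call. In the eicosanoid list 12 of 14 assays were above 0 with a median of 0.27 and 0 called. Over all 573 assays, 286 were above 0. Alox5 alone had 6 of the 14 assays, all above 0. Alox5ap, which presents arachidonic acid to 5-lipoxygenase, differed by 0.35 ± 0.20 and Ltb4r1, the leukotriene B4 receptor, by 0.66 ± 0.36 (adjusted p = 0.68 for each). The 2 assays below 0 were Ptgs2 at -1.47 ± 1.78 and Pla2g2d at -0.91 ± 0.59 (adjusted p = 0.92 and 0.73). Each was lower on 3 of 3 panels.

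The lists for matrix, endothelium and adhesion, platelets and adipocytes gave no call. Medians were 0.13 for 4 matrix and fibroblast assays, -0.00 for 6 endothelial and adhesion assays, -0.30 for 2 platelet assays, -0.22 for 9 adipocyte assays and 0.01 for 21 assays of housekeeping genes. The endothelial and adhesion list includes integrin genes of leukocytes, such as Itgam, so its median is not a reading of endothelial cells alone. Fn1, fibronectin, differed by 0.27 ± 0.22 and Spp1, osteopontin, by 0.31 ± 0.32 (adjusted p = 0.86 and 0.92). The adipokine Adipoq varied within groups by more than the groups differed, from -4.22 to -2.82 in healthy and from -4.81 to -2.19 in tumor-bearing mice. The epithelial genes, which a carcinoma also expresses, gave no call. Muc1 differed by 0.74 ± 0.45 (adjusted p = 0.73) and Erbb2 by 0.05 ± 0.40 (adjusted p = 0.99).

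Among 8 assays for mast cells, basophils and eosinophils the median was 0.07. Prg2, the major basic protein of eosinophil granules, read -8.65, -9.41 and -11.90 in healthy and -6.43, -8.37 and -7.08 in tumor-bearing mice. It was higher in all 3 tumor-bearing samples, but healthy replicate 25 stood well below the other healthy samples, and the difference of 2.69 ± 1.20 (adjusted p = 0.495) did not pass. Il19, a cytokine of the interleukin 10 family, was read late, at -12.91, -11.53 and -12.46 in healthy and -11.25 and -9.78 in tumor-bearing mice with no Cq on panel C. The 2 tumor-bearing values were above the healthy ones, by 1.76 ± 0.56 (adjusted p = 0.259). The neuropeptide gene Gal went the other way, at -5.79, -7.37 and -6.42 in healthy and -7.92, -8.31 and -7.13 in tumor-bearing mice. Its groups overlapped, since healthy replicate 24 lay below tumor-bearing replicate 28, with a difference of -1.25 ± 0.42 (adjusted p = 0.259).

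Among the smaller differences with a value in all 6 samples, the efflux pump gene Abcb1a was lower by -0.71 ± 0.22 (adjusted p = 0.153) and the cytokine Osm by -0.74 ± 0.26 (adjusted p = 0.268). The nuclear pore gene Nup85 was lower by -0.55 ± 0.19 (adjusted p = 0.268). On the upper side the growth factor Fgf18 was higher by 0.76 ± 0.29 (adjusted p = 0.35), the complement genes C1rl by 0.52 ± 0.22 and C6 by 1.22 ± 0.57, and the complement receptor C3ar1 by 0.54 ± 0.22 (adjusted p 0.43 to 0.53). The second C3ar1 assay gave 0.13 ± 0.27. None of these passed. Over 44 genes with at least 2 tested assays and no reaction standing apart, 33 had the same sign in all assays, and the median spread between assays of a gene was 0.37. The widest spread, 3.26, was that of Cntfr, at -2.25 ± 0.89 and 1.01 ± 0.66.

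Large differences at day 21 were checked against the raw Cq. Of 14 assays with a difference of at least 2, 6 were the genes that rose, each read in 2 or 3 mice on each side, and 6 others held a reaction more than 4 cycles from its group median. The remaining 2, Prg2 and Chst4 (2.17 ± 1.43, adjusted p = 0.73), were neither. A reaction was counted as standing apart where it lay more than 4 cycles outside the range of all other day 21 samples, with at least 2 of those measured. Tumor-bearing replicate 26, on panel A, had 8 such reactions earlier and 2 later than all others. Tumor-bearing replicate 28 had 1 earlier and 1 later, and tumor-bearing replicate 27 and the 3 healthy samples had 0.

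The earliest of these reactions were all in replicate 26. Hsp90ab1, a chaperone gene, crossed at 3.65 cycles in replicate 26 and at 16.8 to 17.7 in the other 4 measured samples. Cxcr4, the receptor that retains neutrophils in the marrow, crossed at 6.86 cycles against 18 to 18.9 in 4 others. Fabp4, the fatty acid binding protein of adipocytes and macrophages, crossed at 7.64 cycles against 16 to 17 in 4 others, while its second assay differed by 0.20 ± 0.55 with all 6 samples measured. Nono crossed at 8.83 cycles against 17.8 to 18.9, and the T cell ligand gene Cd40lg at 14 against 28.3 to 30.4.

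These reactions carried the estimates of their assays. Cxcr4 had a model difference of 5.74 ± 1.54 (adjusted p = 0.0708) and differed by 0.06 on the 1 other panel with both samples. Fabp4 had 4.54 ± 1.31 (adjusted p = 0.109) and differed by 0.39 on the 1 other panel. Without the far reactions Cd40lg moved from 4.57 to -0.63, Hsp90ab1 from 4.31 to 0.07, Tnfrsf9 from 2.22 to -0.13 and Nono from 3.25 to -0.0096. In the authors' deposited table these single reactions enter as a 53-fold higher level of Cxcr4, 23.8-fold of Cd40lg, and 23-fold of both Fabp4 and Hsp90ab1. In the authors' deposited table Chrna7 has a 382845-fold and Nodal a 40690-fold higher level at day 21. Each rests on 1 reaction per side, Chrna7 at 12.6 cycles in replicate 26 and 30.9 in healthy replicate 24, and Nodal at 15.5 and 30.6. Neither could be tested here.

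The late reactions worked in the other direction. Krt8, an epithelial keratin gene, read -10.40 in tumor-bearing replicate 28 and -6.45 and -5.85 in replicates 26 and 27. Healthy mice read -6.33, -5.30 and -5.52, and the difference of -1.85 ± 1.59 became -0.46 without that reaction. Leaving out every reaction over 4 cycles away from the median of its group, the same 7 assays passed among 570 tested.

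**Figure D3:**
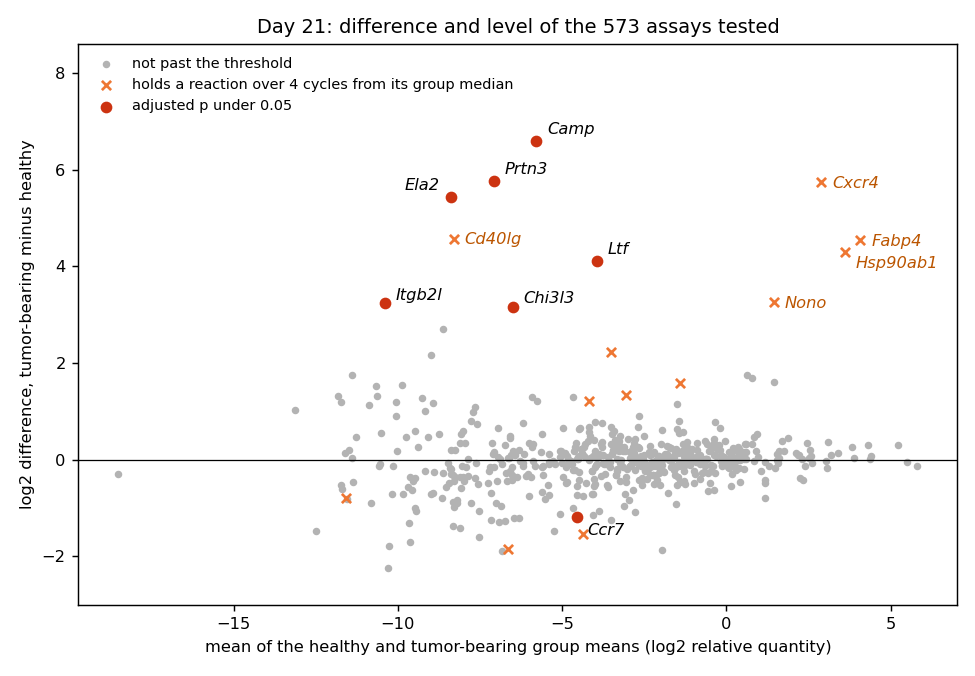
Log2 difference, tumor-bearing minus healthy (y axis), against the mean of the group means (x axis, log2 relative quantity) for the 573 tested assays. Red points passed an adjusted p of 0.05 and crosses hold a reaction more than 4 cycles from its group median. Cxcr4 (5.74), Fabp4 (4.54) and Hsp90ab1 (4.31) stand at the far right, apart from the called genes.

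**Figure D4:**
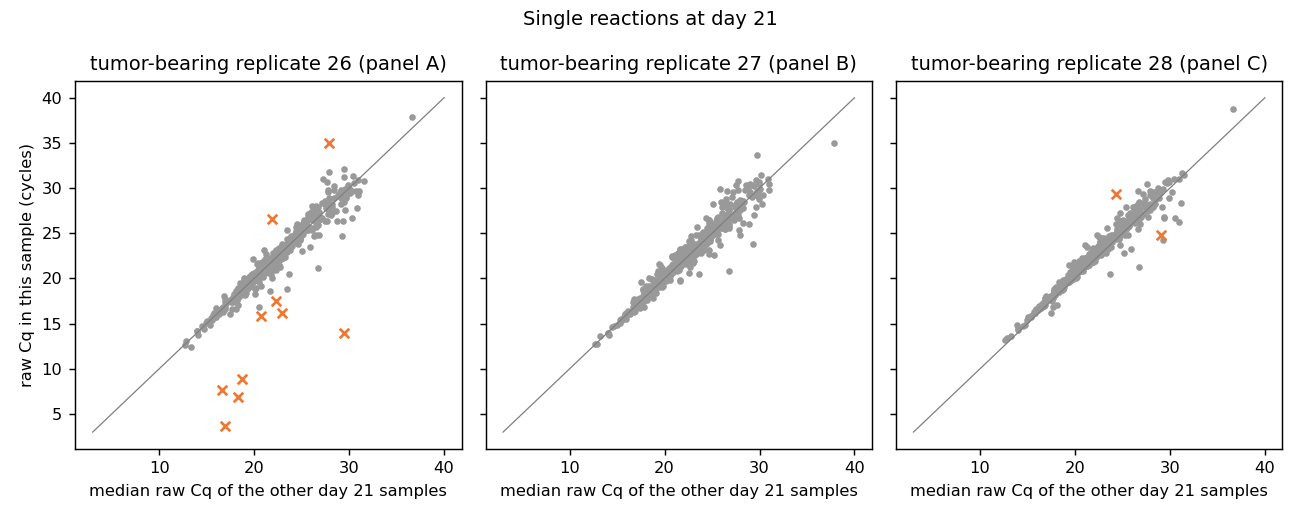
Raw Cq of each assay in the 3 tumor-bearing samples (y axis) against the median Cq of the other day 21 samples (x axis), both in cycles, with the line of equality. Crosses lie more than 4 cycles outside all other samples; 10 are in replicate 26 and 2 in replicate 28.

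Missing reactions were also uneven. An assay whose other samples had a median Cq under 24 had no Cq in 18 cases in tumor-bearing replicate 26, in 7 in replicate 27 and in 0 in replicate 28. The healthy replicates 23, 24 and 25 had 7, 3 and 2 such cases. Of all 648 assays 498 were measured in all 6 samples and 24 in none. In 2 assays, Prok2 and Kng1, all 3 tumor-bearing and no healthy samples had a Cq, and in 1, F2 (prothrombin), all 3 healthy and no tumor-bearing samples had one, at a mean of -11.66. These reactions came at 29.3 to 31.3 cycles, where the spread between mice is widest.

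The difference at day 21 was set beside those of the earlier days, estimated in the same model from other mice. Camp differed by -0.48 ± 1.24 at day 7 (adjusted p = 0.997), 4.81 ± 0.73 at day 14 (adjusted p = 0.00041) and 6.59 ± 1.11 at day 21. At day 14, with 8 mice a side, 14 of 588 assays (2.38%) passed. Healthy replicates 7 to 10 of day 14 were on a panel with no tumor-bearing sample. Tumor-bearing replicates 15 to 18 were on a panel with no healthy one. For these day 14 mice condition and panel cannot be told apart, unlike at day 21. For Ela2 the differences were -0.60 ± 1.13, 3.71 ± 0.76 and 5.44 ± 1.01, and for Prtn3 0.63 ± 1.15, 4.39 ± 0.80 and 5.76 ± 1.05. Ltf gave 0.85 ± 0.88, 2.28 ± 0.59 and 4.10 ± 0.88, and Chi3l3 0.46 ± 0.69, 1.53 ± 0.44 and 3.17 ± 0.69. In each of these 5 genes the estimate was highest at day 21.

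The differences between days did not pass. Camp had a day 21 effect larger than the day 14 effect by 1.78 ± 1.33 (adjusted p = 0.88) and larger than the day 7 effect by 7.07 ± 1.67 (unadjusted p = 0.00034, adjusted p = 0.191). Ela2 exceeded day 7 by 6.04 ± 1.52 (adjusted p = 0.227), and Prtn3 by 5.12 ± 1.56 (adjusted p = 0.869). Of 571 assays 0 passed for day 21 minus day 14 in limma (31 with an unadjusted p under 0.05, 5.43%), and of 560 assays 0 passed for day 21 minus day 7 (22, 3.93%). With the panel as a fixed block Camp and Ela2 passed for day 21 minus day 7, and 1 assay, Atrn, for day 21 minus day 14. The 3 smallest p-values against day 14 belonged to Il19 (2.74), Bmp15 (2.80) and the Fabp4 assay that holds the early reaction (5.05).

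Not every neutrophil gene differed most at the last day. S100a9 differed by 2.12 ± 0.38 at day 14 and 1.70 ± 0.59 at day 21, and Pglyrp1 by 1.65 ± 0.24 and 1.29 ± 0.37. Their changes between these days were -0.42 ± 0.71 and -0.36 ± 0.44 (adjusted p = 0.949 and 0.915). The mean level of S100a9 in tumor-bearing mice was 0.23 at day 14 and 1.64 at day 21, and in healthy mice -1.85 and -0.05, so both groups were higher at day 21. Ccr7 differed by -0.62 ± 0.30, -0.64 ± 0.19 and -1.18 ± 0.30 at days 7, 14 and 21. In tumor-bearing mice its mean was -5.06, -5.41 and -5.14 and in healthy mice -4.44, -4.75 and -3.96, so that its highest group mean was in the day 21 healthy mice. Changes between days within a group were not tested here.

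**Figure D5:**
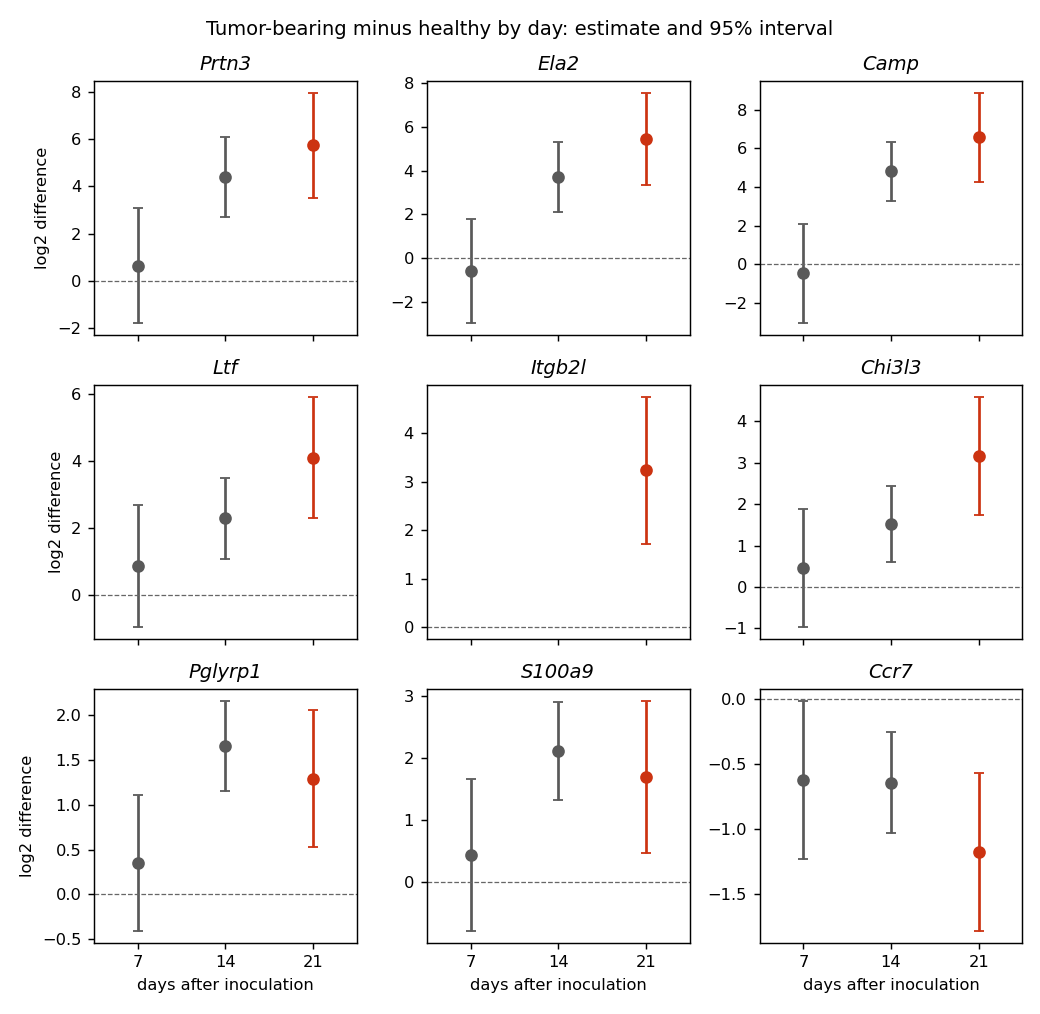
Log2 difference, tumor-bearing minus healthy (y axis, a separate range for each gene), at days 7, 14 and 21 (x axis), with 95% intervals from the limma model. Camp rises from -0.48 to 4.81 and 6.59, while S100a9 and Pglyrp1 are higher at day 14 than at day 21. Itgb2l could be tested at day 21 only.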

How the data were processed

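RNA of each frozen implant was reverse transcribed and measured with a TaqMan OpenArray panel of inflammation genes, per the labels' protocols. The raw file deposited by the authors holds Cq scores, and the normalized file deposited by the authors holds linear ratios to reference assays. The file headers do not name these, and the 5 were found from the values. The software that called the Cq is not given in the sources used here. From the log2 of the ratios, limma 3.58.1 (R 4.3.3, statmod 1.5.0) fitted 1 mean per group of day and condition over all 28 samples, with the panel as a random block (correlation 0.0535) and Benjamini-Hochberg adjustment. Testing an assay required a value in 50% or more of the samples of some group and 2 values in each group compared. ± is a standard error unless SD is written. Missing reactions stayed missing. Precision is limited by the few mice. The model was tried on simulated data with independent noise, without a panel effect or outlying reactions, so it does not cover those features. It called 13 of 20 simulated log2 changes of 1, 19 of 20 of 2 and 20 of 20 of 4, with 1 false call. The ratio of tumor-bearing to healthy means in the authors' deposited table was used only where named.

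Named genes were the assays past the threshold, the 12 smallest p-values in each direction with a value in all 6 samples, each list's calls or its 2 smallest p-values, other assays of those genes, assays read on 1 side only, and the 3 smallest p-values between days. Mrc1, Fpr1, Il8rb, Il8ra, Trem1, Chst4, Cxcl10, Cxcl11, Csf3, Ccl17, Cd74, Ccl19, Cxcl9, Il23a, Adipoq, Erbb2, Atrn, Alox5, Ptgs2, Pla2g2d, Il7r, Il2 and the genes named for single reactions were chosen after their values were seen. Some genes that the rule would name are not reported here. The groups, lists and tests were chosen with earlier results of these data known. Symbols were matched to RefSeq, where 618 assays had 1 gene and 21 symbols were updated. Alternatives covered the block, the samples, the scaling, missing and outlying reactions, the filter, the variance prior and each replicate.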

Additional observations from a re-analysis of the deposited data

Results flagged for a closer look

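In 2 assays all 3 tumor-bearing and no healthy day 21 samples had a Cq, so that they could not enter the comparison. Prok2, which encodes prokineticin 2, a secreted protein made by neutrophils among other cells, had a mean log2 relative quantity of -11.44 in the 3 tumor-bearing samples (-12.82, -10.80 and -10.69). The second Prok2 assay had a Cq in 1 sample, tumor-bearing replicate 28, at -8.84. At day 14 the first assay had a Cq in 3 tumor-bearing samples of 8 and in 1 healthy sample of 8, and at day 7 in 0 tumor-bearing samples of 3 and in 1 healthy sample of 3. Kng1, a kininogen gene, had a mean of -12.34 in the 3 tumor-bearing samples (-12.44, -12.49 and -12.08). At day 14 it had a Cq in 4 tumor-bearing samples of 8 and in 1 healthy sample of 8. At day 7 it had one in 0 tumor-bearing samples of 3 and in 2 healthy samples of 3. In the 2 assays read in all 3 tumor-bearing samples the reactions crossed at 29.3 to 31.3 cycles, and the difference between the groups was not tested.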

How the results depend on the processing

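The call counts at day 21 moved with the handling of missing values and with the samples in the fit. Against 7 calls, 3 passed with the 6 day 21 samples alone and the panel as a fixed block (Camp, Ela2 and Ltf). Among the 312 assays measured in all 28 samples 1 passed (Chi3l3). Of the 7, these 312 held only Chi3l3 and Ccr7 (adjusted p = 0.0708, limma). Camp, Ela2, Prtn3, Ltf and Itgb2l were not tested there. When each missing reaction took the file's largest Cq, 39.7, 0 passed (60 with an unadjusted p under 0.05). Without panel A, an alternative chosen after seeing the data, 1 passed, and Prtn3 and Itgb2l could not be tested. Leaving out 1 sample gave 1 to 7 calls. The other alternatives gave 5 to 9 calls, among them 7 with the day 21 samples alone, where Pglyrp1 and Csf3 passed and Itgb2l and Ccr7 did not. With the panel as a fixed block 6 passed at day 21, with Pglyrp1 gained and Itgb2l and Ccr7 lost, and 1 and 2 assays passed for day 21 minus days 14 and 7; the cause was not tested. Missing reactions at the largest Cq turned Cxcr4 to -3.27, Fabp4 to -4.67, Il19 to -1.65, Bmp15 to -2.82, Chst4 to -2.34, Cybb to -7.61 and Itgam to -7.16, since 1 tumor-bearing sample then holds the imputed value. Without far reactions Cd40lg turned to -0.63, Tnfrsf9 to -0.13 and Nono to -0.0096, and without panel A Cd40lg was -0.60, Tnfrsf9 -0.15, Trem1 -0.38, Adipoq 0.023 and Il8ra 0.0185. When 1 sample was left out, signs turned for Cd40lg (-0.63 to 7.53), Tnfrsf9 (-0.13 to 3.40), Nono (-0.0093 to 5.02), Trem1 (-0.33 to 0.56), Erbb2 (-0.23 to 0.53), Il8ra (-0.87 to 0.011) and Cd74 (-0.23 to 0.061). Over 75 tested assays of the genes named in the comparisons and 1274 comparisons with alternatives, 1198 kept direction and side of the threshold, 42 lost the threshold, 9 gained it and 25 reversed. Alox5, Ptgs2, Pla2g2d, Il7r and Il2 are not among these 75. Pairing by replicate number could not be done, since the numbers run from 1 to 28 and none is shared; pairing by panel is the fixed block given above. Assays read after 28 cycles, with a median SD of 0.937, limit what could be seen.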
